A study of Mus musculus with 4 samples.

Results

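The 10 genes described here, Ctnnb1, Cdc25a, Wee1, Fbxo5, Clspn, Per1, Per2, Atf4, Pdcd4 and Yap1, encode proteins that are degraded through the ubiquitin ligase SCF β-TrCP. They were taken by symbol from the deposited array table, where 12 of 55681 probes, and 10 of 24561 gene symbols, belong to them. Atf4 and Per1 were read by 2 probes each and the other 8 genes by 1 probe each. The rule used no measured value, but the 10 genes were chosen with earlier results of these data known. The RNA of these genes was measured in 4 lines of L1210, a mouse lymphocytic leukemia cell line of the DBA subline 212, to ask whether it differs when a splice variant of Fbxw11 is overexpressed.

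SCF β-TrCP is built from the cullin Cul1, the adapter Skp1, the RING protein Rbx1 and a substrate-binding F-box protein, either Btrc (β-TrCP1) or Fbxw11 (β-TrCP2). The F-box protein binds a short motif in its substrate, usually around aspartate, serine and glycine, only after kinases have phosphorylated it, and the substrate is then ubiquitinated and destroyed by the proteasome. This control acts on protein. An expression array measures only the RNA from which the substrate is made, and neither the protein nor its turnover can be read from it.

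L1210-control carries a control construct, and the other lines are labelled as overexpressing Fbxw11: L1210-Fbxw11a the full-length transcript, L1210-Fbxw11c the variant without exon 2, and L1210-Fbxw11d the variant without exons 2 and 3. They are called the control line and the Fbxw11a, Fbxw11c and Fbxw11d lines from here on. All 4 were made with a virus, called a lentivirus in the labels and the study's methods and a retrovirus in its results text, sorted for GFP as stable cells and grown in the same medium. The study's methods list a lentiviral expression vector with the EF1α promoter among the reagents without naming the vector of each line, and the number of clones in each line is not given in the sources used here. Total RNA of each line was hybridised to 1 Agilent one-colour array, so a difference between lines cannot be checked against replicates and no p-value is given. The control line, the Fbxw11a line and the Fbxw11c line lay on slide 1 and the Fbxw11d line lay alone on slide 2, so slide and line cannot be told apart there.

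Fbxw11 itself was read by 2 probes, at chr11:32646601-32646660 and chr11:32646490-32646549. The brighter gave 13150 in the control line, 16340 in the Fbxw11a line, 15870 in the Fbxw11c line and 13380 in the Fbxw11d line, and the other gave 9730, 11240, 11330 and 10990 in the same order. The log2 ratios to the control line were 0.31, 0.27 and 0.025 on the brighter probe, or 1.24-fold, 1.21-fold and 1.02-fold, and 0.21, 0.22 and 0.18 on the other, with spot SDs of 0.083 to 0.11. Both probes were past 2 spot SDs in the Fbxw11a and Fbxw11c lines and neither in the Fbxw11d line, and no line was 2-fold above the control line on either probe. The processing decides these values. With quantile normalization the second probe in the Fbxw11c line was at 0.16, within 2 spot SDs, and the Fbxw11d line had -0.061 on the brighter probe and 0.11 on the other, with near-equal values in the authors' normalized data. With normexp background correction, another way to remove background, the Fbxw11a line had 0.277 and 0.181, both within 2 spot SDs (0.14 in such values). The Fbxw11d line had 0.11 and 0.31 there, the second past 2 spot SDs (0.13 in such values). With median centring the Fbxw11d line had 0.24 and 0.39. With alignment on spike-in RNAs, described below, the 3 lines had 0.18, 0.12 and 0.61 on the brighter probe and 0.078, 0.066 and 0.76 on the other. Whether either probe reads the construct was not tested. The study reports high expression of the variants in its lines by RT-PCR and western blot. Those checks were not used here.

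Values are processed signal intensities, each array scaled to its 75th percentile and printed on the scale of the control line, rounded to 4 digits. Signals of different probes are not comparable as levels, and each probe, or the sum over a fixed list of probes, is set against itself in other lines. The error given is the SD between spots of 1 probe on the log2 scale, taken from probes printed on 10 spots and of like brightness. For Ctnnb1, whose probe is on 2 spots, it is reduced to the error of the mean of the spots. The brighter Atf4 probe is brighter than every 10-spot probe on its array, where the highest signals were 93700 to 109000. Its error is that of the brightest group of such probes. For a log2 ratio of 2 lines the SDs of both arrays were combined. This spot SD leaves out culture, sorting and RNA extraction, and of all genes compared 24.6% were past 2 spot SDs from the control line in the Fbxw11a line, 27.5% in the Fbxw11c line and 28.2% in the Fbxw11d line. On each of the 4 arrays the 12 probes were well above background, and none of their spots was marked as an outlier or saturated.

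Across the arrays, 62.5 to 68.7% of probes were well above background, and after scaling the E1A spike-in RNAs had log2 ratios to the control array of 0.13 ± 0.062 (SD, n = 8 probes) in the Fbxw11a line, 0.15 ± 0.097 (SD, n = 8) in the Fbxw11c line and -0.59 ± 0.090 (SD, n = 8) in the Fbxw11d line. If the arrays were aligned on these RNAs instead, ratios between 0 and these values would change sign. Of 10 B lymphoid markers 6 were well above background on every array, and the signals of all 10 summed to 385 to 482. Cd79b, Ebf1, Rag1 and Igll1 were not well above background on any array. Of 8 T lymphoid markers 5 were well above background in the control line and 6 in each variant line, with a sum over all 8 of 4419 to 4854, and Cd3d and Cd3g were above background on no array while Cd3e, Cd4 and Lck were on all. Of 8 macrophage and monocyte markers 7, all but Lyz2, were well above background on every array, and all 8 summed to 14720 in the control line and 11210 to 12480 in the variant lines. The summed signal of 8 fibroblast markers was 1238 in the control line, 2771 in the Fbxw11a line, 4127 in the Fbxw11c line and 3987 in the Fbxw11d line, a sum that followed the single probe of the collagen gene Col1a2, at 888.3, 2419, 3819 and 3688. The part of these markers in the ratios below was not tested, and the identity of the cell line was not checked beyond them.

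The probes that decide how the main results are read are shown first, 5′ to 3′, with coordinates in mm9. The Fbxo5 probe is given whole because its 60 bases span 493 bases of chr10:4546271-4546763, so that it reads a spliced transcript. The last 30 bases are given for the Per2 probe, which lie at chr1:93313046-93313075 and are listed in reverse orientation, and for both Per1 probes, which lie at chr11:68923394-68923423 and chr11:68919925-68919954. The dimmer Per1 probe comes from a cDNA without a RefSeq accession in the deposited table, and its last 8 bases, in capitals, are letters common at the 3′ end of introns. No genome of the mm9 build was used here, and the exon or UTR under each probe was not analysed here.
Fbxo5 probe: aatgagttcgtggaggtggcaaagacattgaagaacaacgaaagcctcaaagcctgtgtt
Per2 probe, last 30 bases: ttttaaaggaaattcaatgttacagacagc
Per1 brighter probe, last 30 bases: atttgtgtttttgatattgtgtctgttatt
Per1 dimmer probe, last 30 bases: ctccttgttaaccctggtctttCCCCACAG

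At a difference of 2-fold or more from the control line, 0 of the 10 genes were called in the Fbxw11a line, 1 in the Fbxw11c line and 0 in the Fbxw11d line. The call was Per2, lower in the Fbxw11c line. Over all genes compared in the same way, 4.45% of 17929 were called in the Fbxw11a line, 3.88% of 17734 in the Fbxw11c line and 5.75% of 18437 in the Fbxw11d line, so the counts among the substrates were near the background. Counted by probe, 0, 1 and 0 of the 12 probes were called, beside 5.13%, 4.47% and 6.97% of all probes. At 1.5-fold the calls were 0 of 10 in the Fbxw11a line, Per2 in the Fbxw11c line, and Fbxo5, higher, with Per2, lower, in the Fbxw11d line, beside 10.8%, 9.87% and 14.7% of all genes. Between the variant lines, Per2 was the 1 gene called at 2-fold in the Fbxw11c line against the Fbxw11a line, where it was lower, and in the Fbxw11d line against the Fbxw11c line, where it was higher, and 0 genes were called in the Fbxw11d line against the Fbxw11a line, beside 4.22%, 4.23% and 6.02% of all genes in the same order.

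**Figure D1:**
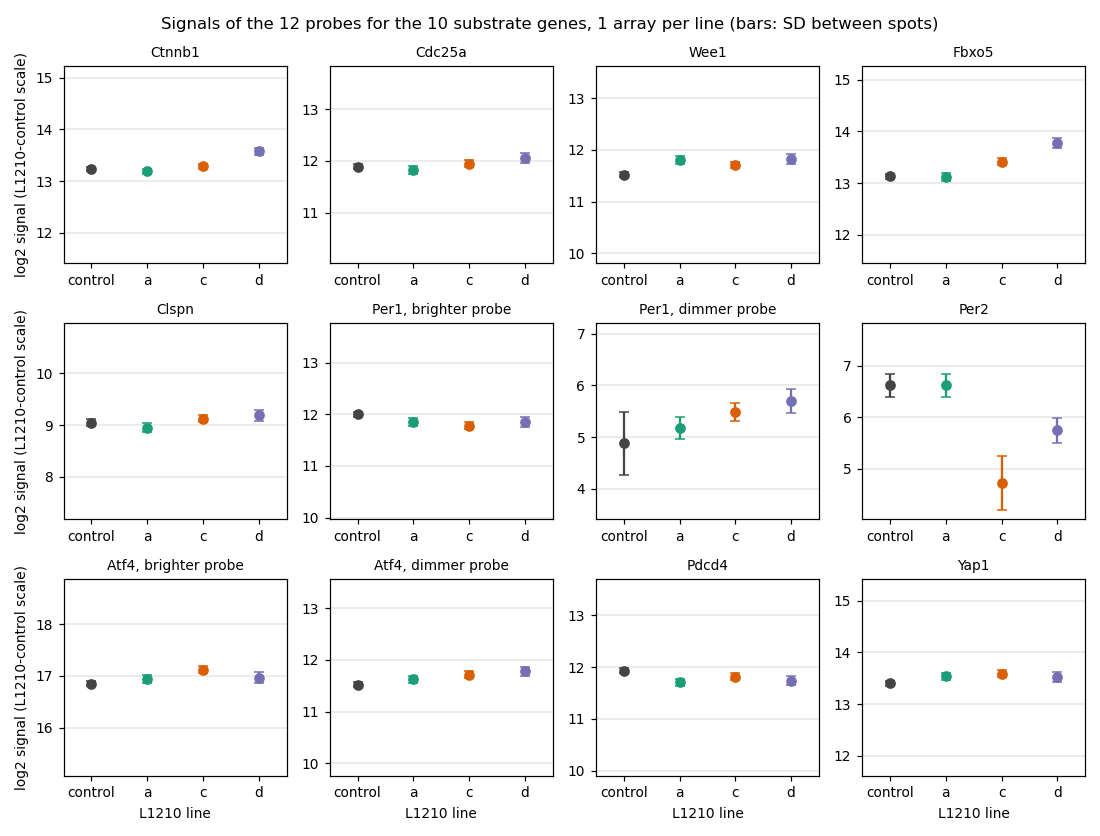
Log2 signal of each of the 12 probes on the scale of the control line (vertical axis, the same span of log2 units in every panel but a different position) in the 4 lines, 1 array each. Points are the probe's signal and bars its spot SD, as defined above. Per2 in the Fbxw11c line stands 3.70-fold below the control line, while most other probes stay within a small part of the panel.

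Ctnnb1 encodes β-catenin, the transcriptional coactivator of the Wnt pathway, which is marked for β-TrCP by Gsk3 and casein kinase 1 on a scaffold of Axin and Apc. Its probe, at chr9:120869274-120869333 and printed on 2 spots, gave a signal of 9625 in the control line, 9331 in the Fbxw11a line, 9995 in the Fbxw11c line and 12210 in the Fbxw11d line. The first 3 lines differed from one another by less than 2 spot SDs, and the Fbxw11d line stood above each of them by more. The log2 ratio to the control line was 0.34 (spot SD 0.079) in the Fbxw11d line, a 1.27-fold difference, against -0.045 (spot SD 0.060) in the Fbxw11a line and 0.055 (spot SD 0.058) in the Fbxw11c line. It was 0.27 in the Fbxw11d line with quantile normalization, 0.56 with median centring and 0.93 with alignment on the spike-in RNAs, all past 2 spot SDs. The other lines came past 2 spot SDs from the control line in 1 setting each. These were the Fbxw11c line at 0.13 with median centring and the Fbxw11a line at -0.18 with the spike-in RNAs. The spot SDs of Ctnnb1 are for the mean of its 2 spots. With the 0.083 of Fbxo5, a single-spot probe of like brightness, the Fbxw11c value would be within 2 spot SDs.

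Of the genes that work with β-catenin, the scaffold genes Axin1 and Apc had log2 ratios between -0.29 and 0.14 in the 3 variant lines. Tcf7, a DNA-binding partner of β-catenin, had a signal of 709.8 in the control line and log2 ratios of 0.14, 0.24 and 0.54 in the Fbxw11a, Fbxw11c and Fbxw11d lines. Its relative Lef1 was well above background in the Fbxw11c line alone, and the feedback gene Axin2 on no array. Gsk3a had a log2 ratio of 0.42 in the Fbxw11d line, and Gsk3b and Csnk1a1 lay within 0.17 of the control line in every line.

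Cdc25a, Wee1, Fbxo5 and Clspn act in the cell cycle. Cdc25a is a phosphatase that removes inhibitory phosphates from cyclin-dependent kinases, Wee1 is the kinase that adds them, Fbxo5 (Emi1) inhibits the anaphase-promoting complex, and Clspn (Claspin) links the kinase Atr to Chek1 at stalled replication forks.

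Fbxo5 had the largest positive log2 ratio of the 10 genes on their brighter probes. The signal was 8975 in the control line, 8895 in the Fbxw11a line, 10910 in the Fbxw11c line and 14000 in the Fbxw11d line. The control line and the Fbxw11a line differed by a log2 ratio of 0.013 (spot SD 0.084), and the next steps, to the Fbxw11c line and from there to the Fbxw11d line, were each larger than 2 spot SDs. With alignment on the spike-in RNAs the Fbxw11c line was within 2 spot SDs of the control line (0.13). The log2 ratio to the control line was 0.28 (spot SD 0.083) in the Fbxw11c line, or 1.22-fold, and 0.64 (spot SD 0.11) in the Fbxw11d line, or 1.56-fold. The latter lay above the central 90% of all genes in that line, which ran from -0.97 to 0.58. The 2 activators of the complex that Fbxo5 inhibits had log2 ratios in the Fbxw11d line of 0.21 for Cdc20 and 0.33 for Fzr1. Plk1, the kinase that marks the Fbxo5 protein for β-TrCP, had log2 ratios of 0.12, 0.27 and 0.43 in the Fbxw11a, Fbxw11c and Fbxw11d lines. Bora, which helps to activate Plk1, is itself a reported substrate and is named here after its values were seen, had 0.42, 0.57 and 0.60.

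Wee1, at chr7:117286573-117286632, gave 2942 in the control line, 3585 in the Fbxw11a line, 3352 in the Fbxw11c line and 3622 in the Fbxw11d line. The control line was the lowest line, and the 3 variant lines did not differ from one another beyond 2 spot SDs. The log2 ratios to the control line were 0.28 (spot SD 0.089), 0.19 (spot SD 0.082) and 0.30 (spot SD 0.11), between 1.14-fold and 1.23-fold. Wee1 was the 1 member past 2 spot SDs in the same direction in all 3 comparisons, which share the single control array. This did not hold in the Fbxw11c line with quantile normalization (0.15) or the authors' normalized values (0.15), nor in the Fbxw11a (0.15) and Fbxw11c (0.035) lines with alignment on the spike-in RNAs. The related kinase Pkmyt1 had log2 ratios of -0.11, -0.032 and 0.023, and the target of both kinases, Cdk1, had 0.048, 0.18 and 0.33.

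Cdc25a, at chr9:109796331-109796390, gave 3783, 3633, 3945 and 4265 in the control line and the Fbxw11a, Fbxw11c and Fbxw11d lines. No pair of lines differed by 2 spot SDs, and the widest gap was a log2 ratio of 0.23 (spot SD 0.12) between the Fbxw11d line and the Fbxw11a line. The scaling decides this for the Fbxw11d line, whose log2 ratio to the control line was 0.17 as reported (spot SD 0.11). It was 0.39 with median centring and 0.76 with alignment on the spike-in RNAs, both past 2 spot SDs. In the Fbxw11a line the ratio with the spike-in RNAs, -0.19 (spot SD 0.089), was past 2 spot SDs too. Clspn, at chr4:126270723-126270782, gave 529.1, 493.3, 558.6 and 583.3 in the control line and the Fbxw11a, Fbxw11c and Fbxw11d lines. Again each step between neighbours in the order of lines was within 2 spot SDs. The Fbxw11d line was past 2 spot SDs from the control line with median centring and with the spike-in RNAs. With the spike-in RNAs the Fbxw11a line was past them too, below the control line, at -0.23 (spot SD 0.11). Of the genes that act with Claspin, Timeless was lower in all 3 variant lines, with log2 ratios of -0.36, -0.41 and -0.35, and its partner Tipin had -0.076, -0.14 and 0.035. Atr had log2 ratios of 0.13, 0.12 and 0.10, and Usp7 and Usp28, which remove ubiquitin from Claspin, lay between -0.16 and 0.11. Chek1, the kinase that Claspin brings to Atr and that marks Cdc25a for destruction, had 0.077, 0.0055 and 0.23.

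Ctnnb1, Cdc25a, Fbxo5 and Clspn shared 1 order of the lines, the Fbxw11a line lowest, then the control line, the Fbxw11c line and the Fbxw11d line. Of 16249 genes well above background on all 4 arrays, 7.73% had this order. For Cdc25a and Clspn no step exceeded 2 spot SDs, for Ctnnb1 only the last did, and for Fbxo5 all but the first, so the whole order is set by these data for none of the 4. With normexp background correction the control line and the Fbxw11a line changed places for Fbxo5. When the arrays were aligned on the spike-in RNAs instead, the control line and the Fbxw11c line changed places for Ctnnb1, Cdc25a and Clspn.

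Sequence before the transcription start of the 3 of these genes that act in the cell cycle is shown because they shared this order of lines. RefSeq promoters of GRCm38.p6 were matched for 8 of the 10 genes. Wee1 and Per2 were not among them. The 250 bases before the start were searched on both strands for CCAAT, for the E-box CACGTG, for TTTGAA (a core found in G2/M promoters) and for 4 spellings of an E2F site, TTCCCGC or TTGGCGC or TTCGCGC or TTGCCGC. A gene was counted where any of its listed promoters held the letters, over the 8 genes with 11 promoters and over all 27025 genes with 32851. The letters CCAAT or their complement ATTGG stood in the windows of 7 of the 8 genes, all but Yap1, and in those of 37.5% of all genes. An E2F spelling was in Cdc25a, and in 9.01% of all genes. The E-box was in Per1 and Yap1, and in 6.86%. TTTGAA was in none of the 8, and in 18.3% of all. Capitals mark the CCAAT or ATTGG letters and, in Cdc25a, also 1 stretch with 2 overlapping E2F matches, 1 on each strand. The ATTGG letters begin 93, 55 and 25 bases before the start in Fbxo5, 131 and 81 in Cdc25a, and 69 and 21 in Clspn. A match is a description of letters and not of a site in use. The windows are chr10:5805466-5805715 on the minus strand, chr9:109875329-109875578 on the plus strand and chr4:126556730-126556979 on the plus strand.
Fbxo5 promoter: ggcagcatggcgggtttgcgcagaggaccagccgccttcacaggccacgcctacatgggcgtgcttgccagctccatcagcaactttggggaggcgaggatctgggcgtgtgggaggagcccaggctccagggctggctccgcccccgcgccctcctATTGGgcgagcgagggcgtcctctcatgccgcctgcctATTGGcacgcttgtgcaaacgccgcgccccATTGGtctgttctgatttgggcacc
Cdc25a promoter: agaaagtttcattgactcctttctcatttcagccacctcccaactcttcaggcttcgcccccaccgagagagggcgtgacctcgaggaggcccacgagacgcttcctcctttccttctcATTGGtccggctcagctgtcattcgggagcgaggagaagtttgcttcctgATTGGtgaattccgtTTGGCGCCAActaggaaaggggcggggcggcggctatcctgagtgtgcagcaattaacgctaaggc
Clspn promoter: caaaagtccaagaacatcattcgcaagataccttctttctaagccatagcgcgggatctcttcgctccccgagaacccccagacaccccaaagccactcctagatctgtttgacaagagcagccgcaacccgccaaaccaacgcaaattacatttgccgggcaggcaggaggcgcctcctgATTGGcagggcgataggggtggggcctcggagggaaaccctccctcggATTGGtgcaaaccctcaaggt

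Per1 and Per2 are repressors of the circadian clock. With the cryptochromes they inhibit the activator pair Clock and Arntl, and β-TrCP removes them after casein kinase 1 has phosphorylated them. Per2 gave the widest range of the 10 genes. Its probe, at chr1:93313046-93313105 and shown above, had a signal of 98.13 in the control line, 98.08 in the Fbxw11a line, 26.52 in the Fbxw11c line and 53.66 in the Fbxw11d line. The control line and the Fbxw11a line were almost equal, and both were above the Fbxw11d line and the Fbxw11c line. The log2 ratio to the control line was -1.89 (spot SD 0.57) in the Fbxw11c line, a 3.70-fold difference, and -0.87 (spot SD 0.32) in the Fbxw11d line, or 1.83-fold. The gap of 1.02 (spot SD 0.58) between the Fbxw11d line and the Fbxw11c line was within 2 spot SDs. The probe is dim: before scaling its signal in the Fbxw11c line was 28.75, where the lowest signal counted as above background on that array was 16.1. With a normexp background correction and an offset of 50 the ratio in the Fbxw11c line was -0.95 (spot SD 0.17 in values corrected this way) and the gene was not called at 2-fold, and with alignment on the spike-in RNAs the ratio in the Fbxw11d line was -0.28, within 1 spot SD. Of 1702 genes of like brightness, 5.29% had a wider range over the 4 lines.

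Per1 was read by 2 probes. The brighter probe gave 4089 in the control line, 3685 in the Fbxw11a line, 3509 in the Fbxw11c line and 3690 in the Fbxw11d line. The control line was the highest, though not above the Fbxw11d line with median centring, the variant lines did not differ beyond 2 spot SDs, and of their log2 ratios, -0.15, -0.22 and -0.15, the one of the Fbxw11c line was past 2 spot SDs (spot SD 0.082), though not with median centring (-0.15) or with normexp background correction (-0.18, spot SD 0.12 in such values). The Fbxw11d ratio was past 2 spot SDs (spot SD 0.108) below 0 with quantile normalization (-0.223) and above 0 with the spike-in RNAs (0.44). With the spike-in RNAs the Fbxw11a ratio was past them below 0 (-0.28). The dimmer probe, with the letters CCCCACAG at its end, gave 29.45, 36.23, 44.71 and 52.03 in the control line and the Fbxw11a, Fbxw11c and Fbxw11d lines. There the control line was the lowest, with log2 ratios of 0.30, 0.60 and 0.82, but the spot SDs of 0.64 to 0.66 are so wide at this brightness that no line stood apart. The 2 probes had opposite signs, but an interval of 2 spot SDs around each ratio of the dimmer probe holds the value of the brighter one, so they are not shown to differ. Among the clock partners, Cry1 had a signal of 140.6 in the control line and log2 ratios of -0.38, -0.77 and -0.54 in the Fbxw11a, Fbxw11c and Fbxw11d lines. Clock, Arntl and Cry2 lay between -0.23 and 0.26, and the casein kinases Csnk1d and Csnk1e between -0.013 and 0.26.

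**Figure D2:**
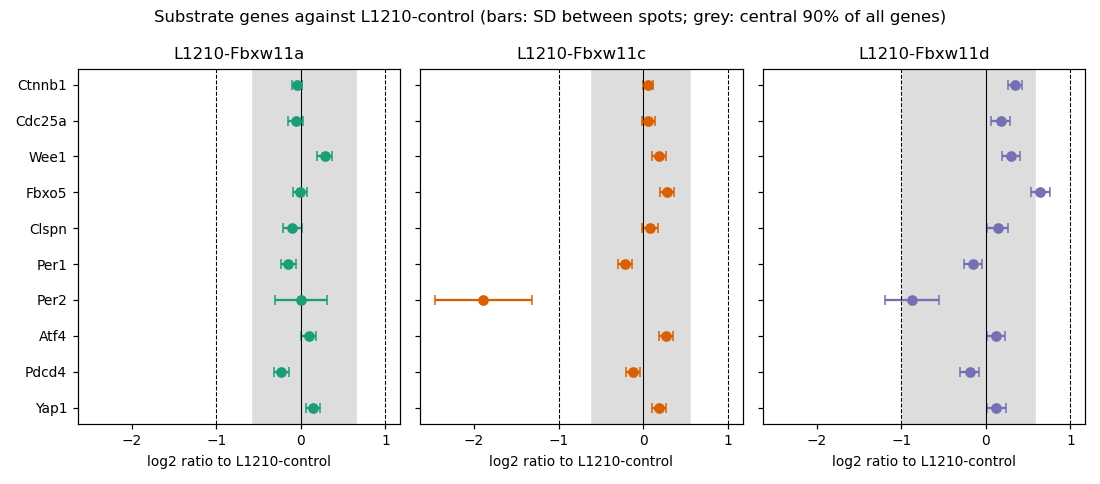
Log2 ratio to the control line (horizontal axis) of the brighter probe of each gene in the 3 variant lines, with bars for the spot SD of the ratio. The grey band is the central 90% of all genes compared and the dashed lines are 2-fold. Outside the band lie Per2 in the Fbxw11c line, at -1.89, and Fbxo5 in the Fbxw11d line, at 0.64.

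Atf4 is the transcription factor of the integrated stress response, induced when the kinases Eif2ak3 and Eif2ak4 phosphorylate eIF2α. Its brighter probe, at chr15:80087902-80087961, gave 118100 in the control line, 125800 in the Fbxw11a line, 142200 in the Fbxw11c line and 128300 in the Fbxw11d line. Its second probe, at chr15:80086639-80086698, gave 2940, 3158, 3363 and 3512. The 2 probes start 1263 bases apart in the genome and 1151 bases apart in the transcript, so 112 bases between them are spliced out. The control line was the lowest on both, and in the Fbxw11c line both were past 2 spot SDs, with log2 ratios of 0.27 (spot SD 0.083) and 0.19 (spot SD 0.082). With alignment on the spike-in RNAs the control line was above the Fbxw11a line on both probes, and the ratios in the Fbxw11c line, 0.11 and 0.041, were within 2 spot SDs. The second probe was also within 2 spot SDs there with quantile normalization (0.16) and with the authors' normalized values (0.15). In the Fbxw11d line the ratios were 0.12 (spot SD 0.11) and 0.26 (spot SD 0.11), and the second was past 2 spot SDs, but not with quantile normalization (0.19) or the authors' normalized values (0.19), while the brighter one was past 2 spot SDs with median centring (0.34) and with the spike-in RNAs (0.71). The target Ddit3 had a signal of 957.5 in the control line and log2 ratios of -0.36, -0.87 and -0.67, and the target Asns had -0.069, 0.11 and 0.0098. Eif2ak3 had log2 ratios of 0.31, 0.23 and 0.082, and Eif2ak4 had 0.099, 0.10 and -0.33.

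Pdcd4 is an inhibitor of the helicase Eif4a1 in translation, and is marked for β-TrCP by the kinase Rps6kb1. Its probe, at chr19:54004105-54004164, gave 3913 in the control line, 3337 in the Fbxw11a line, 3605 in the Fbxw11c line and 3422 in the Fbxw11d line. The control line was the highest, though not above the Fbxw11d line with median centring, and the log2 ratio of -0.23 (spot SD 0.089) in the Fbxw11a line was past 2 spot SDs while -0.12 (spot SD 0.082) in the Fbxw11c line and -0.19 (spot SD 0.11) in the Fbxw11d line were not. The Fbxw11a ratio was within 2 spot SDs with normexp background correction (-0.21, spot SD 0.13 in such values). In the Fbxw11d line the ratio was past 2 spot SDs below 0 with quantile normalization (-0.27) and with the authors' normalized values (-0.26). It was past them above 0 with the spike-in RNAs (0.39). The Fbxw11c ratio was past 2 spot SDs below 0 with the spike-in RNAs (-0.27). The helicase genes Eif4a1 and Eif4a2 lay between -0.20 and 0.17, and Rps6kb1 had log2 ratios of -0.0043, 0.24 and 0.11.

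Yap1 is the coactivator of the Hippo pathway, marked for β-TrCP by the kinases Lats1 and Lats2 with casein kinase 1, and works through the Tead factors. Its probe, at chr9:7932025-7932084, gave 10810 in the control line, 11920 in the Fbxw11a line, 12280 in the Fbxw11c line and 11790 in the Fbxw11d line. The control line was the lowest and the range, a log2 of 0.18, was the smallest of the 10 genes, though not with median centring. In the Fbxw11d line the ratio was within 2 spot SDs. It came past them with median centring (0.34) and with the spike-in RNAs (0.71). In the Fbxw11c line the ratio of 0.18 was past 2 spot SDs (spot SD 0.083), but not with quantile normalization (0.12), the authors' normalized values (0.12) alignment on the spike-in RNAs (0.031) or normexp background correction (0.22, spot SD 0.11 in such values). The kinase genes went in opposite directions in the Fbxw11d line, with log2 ratios of -0.70 for Lats1 and 0.52 for Lats2. Tead1 to Tead4 lay between -0.23 and 0.44 over the 3 variant lines, and Wwtr1, the paralog of Yap1 and another reported substrate, between -0.088 and 0.16.

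Across the set, 2 of the 10 genes were past 2 spot SDs from the control line in the Fbxw11a line (Wee1 higher, Pdcd4 lower). There were 6 in the Fbxw11c line (Wee1, Fbxo5, Atf4 and Yap1 higher, Per1 and Per2 lower). There were 4 in the Fbxw11d line (Ctnnb1, Wee1 and Fbxo5 higher, Per2 lower). The shares of all genes were 24.6%, 27.5% and 28.2% in the same order of lines. The spot SD of a ratio depends on brightness, in the Fbxw11c line 0.083 for Fbxo5 and 0.57 for Per2. These shares, and those between the variant lines below, were not matched for brightness. They do not show whether the counts exceed the background. The count in the Fbxw11c line fell to 4, without Wee1 and Yap1, with quantile normalization and with the authors' normalized values, and to 4, without Per1 and Yap1, with normexp background correction, and in the Fbxw11d line it was 8 with median centring. Between the variant lines, 2 genes were past 2 spot SDs in the Fbxw11c line against the Fbxw11a line (Fbxo5 higher, Per2 lower), 3 in the Fbxw11d line against the Fbxw11a line (Ctnnb1 and Fbxo5 higher, Per2 lower) and 2 in the Fbxw11d line against the Fbxw11c line (Ctnnb1 and Fbxo5 higher), beside 23.0%, 27.2% and 21.8% of all genes. The 3 comparisons with the control line share its array. The median log2 ratio of the 10 genes was -0.029 in the Fbxw11a line, 0.069 in the Fbxw11c line and 0.13 in the Fbxw11d line, beside 0.0061, 0.017 and 0.022 over all genes compared. The median range over the 4 lines was 0.26 on the log2 scale, from 0.18 to 1.89, beside 0.35 over the 16249 genes well above background on all arrays. Dim genes vary more, so each gene was also set beside genes within 0.5 log2 units of its mean level. A wider range was found in 2.70% of such genes for Fbxo5, 5.29% for Per2, 16.1% for Ctnnb1, 20.7% for Atf4 and 43.7% for Wee1, and in 62.5 to 73.2% for Cdc25a, Pdcd4, Per1, Yap1 and Clspn.

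**Figure D3:**
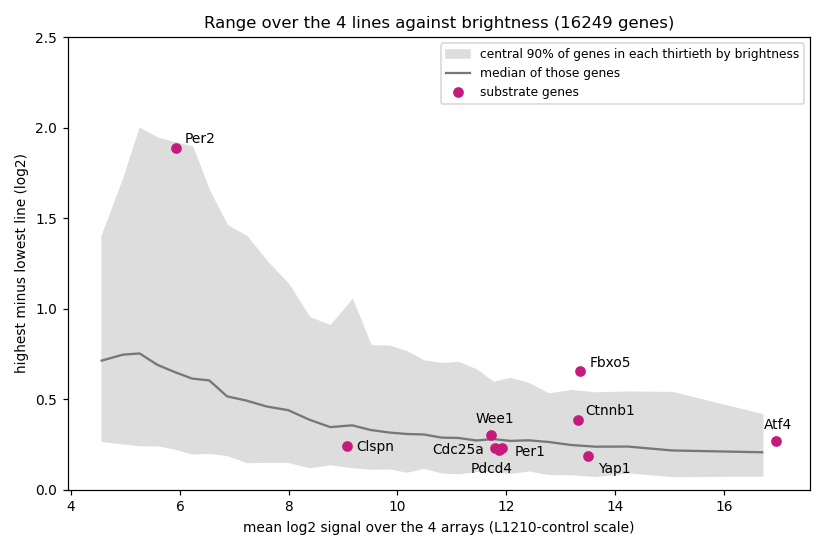
Range of each gene over the 4 lines (vertical axis, highest minus lowest log2 signal) against its mean log2 signal on the scale of the control line (horizontal axis). The grey band and line are the central 90% and the median of all 16249 genes well above background on every array, in groups of equal size by brightness. Fbxo5 lies above the band, Per2 near its upper edge, Atf4 just past its bright end, and the other substrates inside it.

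Outside the 10 genes, a list of 27 other reported substrates had 1 gene past 2-fold among the 25 well above background on all arrays, in the Fbxw11a line, where 4.45% of all genes were called, so the count was near the background. This was Nfkbia, the inhibitor of NF-κB whose destruction by β-TrCP releases the factor, with 43020 in the control line, 20610 in the Fbxw11a line, 24460 in the Fbxw11c line and 26420 in the Fbxw11d line. The control line was the highest line, and the log2 ratios were -1.06, -0.81 and -0.70. The median log2 ratio of the list was -0.11 in the Fbxw11a line, -0.14 in the Fbxw11c line and 0.012 in the Fbxw11d line. None of 7 ligase subunits, 13 kinases that act on β-TrCP substrates or 29 working partners of the 10 genes was 2-fold away from the control line in any line where it was compared. The ligase subunits had medians of 0.041, 0.0065 and 0.12, the kinases 0.042, 0.0055 and 0.18, and the partners -0.069, 0.060 and 0.035. Btrc had log2 ratios of -0.038, -0.070 and 0.12.

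**Figure D4:**
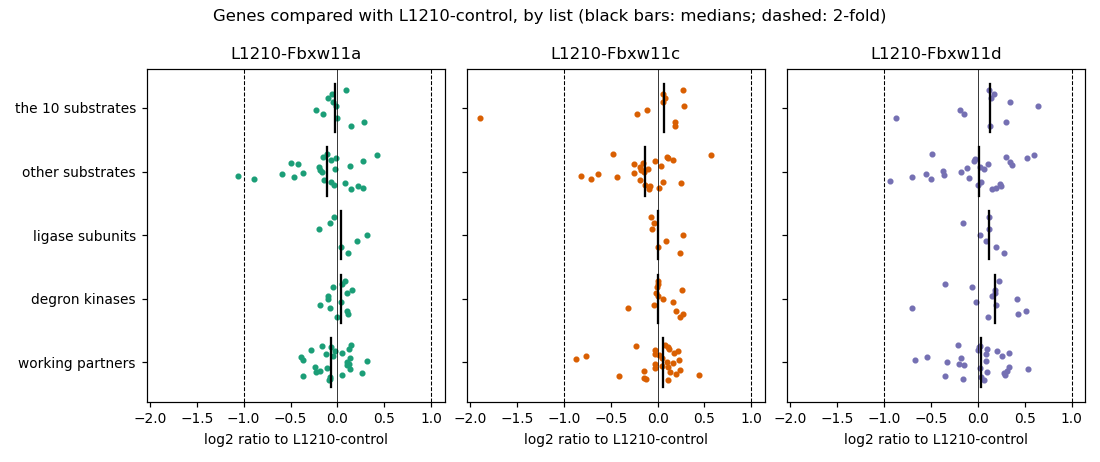
Log2 ratio to the control line (horizontal axis) of each gene in 5 lists, with 1 point per gene, black bars for the medians and dashed lines at 2-fold. Beyond the dashed lines are Per2 in the Fbxw11c line and, at -1.06, Nfkbia in the Fbxw11a line.

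Because the scaling decides small ratios, each was recomputed under 9 other ways of processing. Of the 30 ratios of the 10 genes to the control line, 24 kept their sign throughout, and the 6 that did not were at most 0.22 from 0 on the log2 scale. Of the 9, however, 3 left every value of these genes as it was, and the 8 genes with 1 probe could move under 4 only. For them the sign rests on normexp, quantile normalization, median centring and the authors' normalized values. Quantile normalization and the authors' values were near-equal and are not separate checks. The 6 ratios that changed sign were Per1 in the 3 lines, Pdcd4 in the Fbxw11d line, and Fbxo5 and Per2 in the Fbxw11a line. Fbxo5 in the Fbxw11d line lay between 0.56 and 0.86 and Per2 in the Fbxw11c line between -1.89 and -0.95. Alignment on the spike-in RNAs, chosen after the data were seen, is not among the 9. It put the median of all genes in the Fbxw11d line at 0.61, with Fbxo5 at 1.23 and Per2 at -0.28. Per1 and Pdcd4, lower than the control line under percentile scaling, came out above it in that line. Of the 24 ratios, Atf4 in the Fbxw11a line changed sign with this alignment (-0.040). So did Ctnnb1 (-0.099), Cdc25a (-0.093) and Clspn (-0.075) in the Fbxw11c line.

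**Figure D5:**
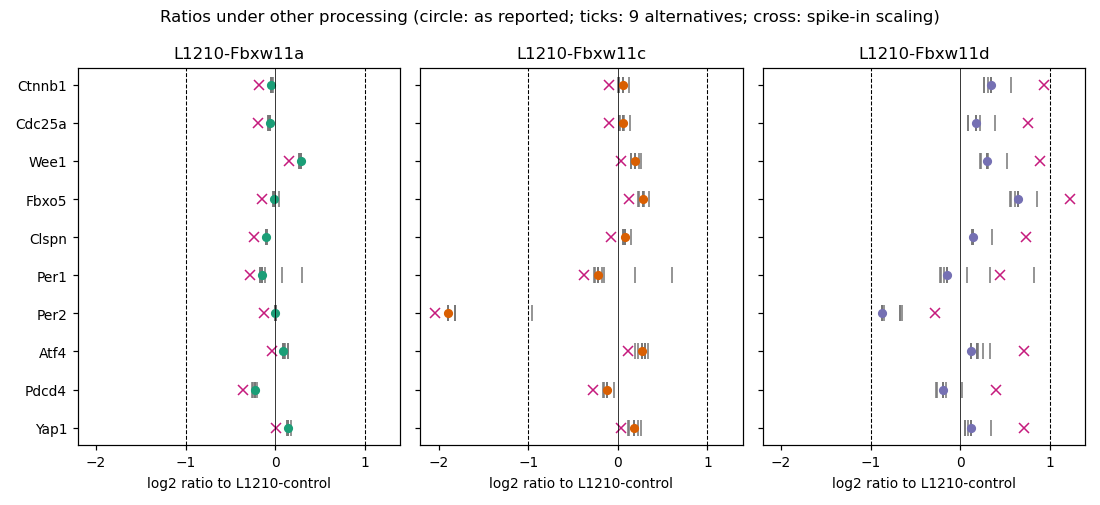
Log2 ratio to the control line (horizontal axis) of the 10 genes in the 3 variant lines as reported (circles), under 9 other ways of processing (ticks) and with alignment on the spike-in RNAs (crosses). The crosses of the Fbxw11d line all lie to the right of the circles, while the call of Per2 in the Fbxw11c line moves inside the dashed 2-fold line for 1 tick.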

How the data were processed

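RNA of 4 L1210 lines was labelled with Cy3 and hybridised to 1 Agilent mouse array each. The authors deposited 1 scanner output per array, with a background-corrected signal intensity for each spot, and 1 table of the same intensity values with log2 values normalized between arrays by the authors. The normalization method is not given in the sources used here. The submitters' processing notes name Agilent Feature Extraction 9.1 and the file headers 10.7.1.1, with build mm9.

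Scanner signals were taken as log2, and the 75th percentile of the gene spots of each array was subtracted (620.2 in the control line and 627.3, 672.5 and 954.2 in the Fbxw11a, Fbxw11c and Fbxw11d lines). Outlier spots were left out and the spots of a probe averaged. A gene was represented by its probe of highest mean signal. Probes with at least 0.5 of their spots well above background on 1 or both arrays were compared, and a dim side was bounded by the lowest signal above background on that array. With 1 array per line no test was run, and the number of arrays limits the precision.

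The 10 genes and the lists were chosen with earlier results of these data known, and the lists came from general knowledge. All 10 genes are named with all their probes. Of each other list the rule was to name genes past 2-fold in at least 1 line and well above background on all 4 arrays, at most 4. Further genes of the list of other reported substrates are named by role, outside this rule, and they do not cover that list. Kinases and partners that act with a member are given beside it.

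The choices varied were the background correction (normexp of limma 3.58.1 with an offset of 50), the scaling (quantile, median centring, or the authors' log2 values), the filter on dim probes (none, or both arrays), outlier spots, the threshold (1.5 or 3) and the probe that stands for a gene. The calling steps were also run on simulated data with known changes, which is no test of the calls reported here. A planned search of the proteins for the β-TrCP motif was not run, and protein sequences were not used here. The software was R 4.3.3 and Python 3.11.15 with pandas 2.3.3 and numpy 2.4.6.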

Additional observations from a re-analysis of the deposited data

How the results depend on the processing

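The count of substrate genes called at 2-fold in the Fbxw11a line was 0 under all 11 alternatives and with spike-in scaling. In the Fbxw11c line it was 1, Per2, except with normexp background correction, where it was 0. In the Fbxw11d line it was 0, except that it was 2 (Fbxo5 and Per2) at a fold change of 1.5 and 1 (Fbxo5) with spike-in scaling, which was chosen after seeing the data. Of the 30 ratios, 10 moved by more than 1 spot SD with median centring, 2 with the mean of both probes, 3 with the second probe, 1 with normexp and 28 with spike-in scaling. Median centring put the median of all genes at 0.24 in the Fbxw11d line, and spike-in scaling put it at -0.12, -0.13 and 0.61 in the Fbxw11a, Fbxw11c and Fbxw11d lines. The count past 2 spot SDs, 2 of 10 in the Fbxw11a line, 6 in the Fbxw11c line and 4 in the Fbxw11d line, was 1 or 2, 4 to 6, and 4 to 8 under the other ways of processing, and 5, 3 and 9 with spike-in scaling. Keeping all probes, requiring both arrays above background or keeping outlier spots left every value of these genes as it was. The cause of these differences was not tested. Leaving out an array was not possible with 1 per line. No paired analysis was possible because each line has 1 array. The low signals limit Per2, with a spot SD of 0.53 in the Fbxw11c line, and the dimmer Per1 probe, with 0.61 in the control line.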

Other observations

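Besides Nfkbia, some genes of the fixed list of 27 other reported substrates are given here by role. Others, among them Deptor, Mdm2, Cdc25b and Fancm, are left out. The NF-κB inhibitors Nfkbib and Nfkbie had log2 ratios to the control line of -0.46 and -0.89 in the Fbxw11a line, -0.44 and -0.71 in the Fbxw11c line and -0.094 and -0.50 in the Fbxw11d line. The precursors Nfkb1 and Nfkb2, which β-TrCP directs to processing, had -0.36 and -0.60, then -0.26 and -0.63, then -0.56 and -0.36 in the same order of lines. The ratios of these 4 genes and of Nfkbia were below 0 in all 3 lines, which share 1 control array, though that of Nfkbib in the Fbxw11d line was within 1 spot SD (0.11). Of the 25 list genes well above background on all arrays, 11 (44.0%) were below 0 in all 3 lines, beside 20.9% of 16249 genes. With spike-in scaling the ratios of these 5 but that of Nfkbia turn to above 0 in the Fbxw11d line. Nfkbib, Nfkbie, Nfkb1 and Nfkb2 are past 2-fold in no line, and the group was named after its values were seen.

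The apoptosis genes had log2 ratios of -0.030, -0.10 and 0.062 for Mcl1, which protects cells, and -0.11, -0.47 and -0.49 for Bcl2l11 (Bim), which kills them. The receptors Prlr and Epor had -0.15 and -0.49 in the Fbxw11a line, -0.19 and -0.16 in the Fbxw11c line and -0.94 and 0.34 in the Fbxw11d line, and Ifnar1 lay between 0.027 and 0.13. The transcription factors Snai1 and Twist1 lay between -0.14 and 0.28, Rest between 0.078 and 0.25, and Nfe2l2 (Nrf2) between -0.18 and -0.14. Gli2 lay near background on every array, and Gli3 was well above it in the Fbxw11d line alone. The spot SD of these ratios is given by brightness and was 0.083 to 0.096 in the Fbxw11c line for probes as bright as Mcl1 and Bcl2l11.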
